A study of Mus musculus with 18 samples.

Results

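The genes described here encode guidance cues and their receptors: the semaphorins and the plexins and neuropilins that bind them, the ephrins and Eph receptors, the Slit ligands and Robo receptors, and the netrins and Unc5 receptors. A gene was included when a probe set with 1 symbol carried a name of these families, and the brightest such probe set over all 18 arrays stood for the gene. This gave 72 of the 18193 genes that were tested, measured by 159 probe sets, and 25 of the 72 had 1 probe set. The names also took in 3 genes of other kinds, the Golgi protein Unc50, the death-domain protein Unc5cl and the antisense transcript Plxna4os1, so that 69 are guidance genes. Of these, 37 encode ligands and 32 encode receptors.

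Guidance cues are proteins that steer moving cells, growing axons and vessel sprouts by attraction or repulsion, and most act through receptors that reorganise the actin cytoskeleton. Semaphorins signal through plexins, and the secreted class 3 semaphorins mostly need a neuropilin as co-receptor. Ephrins stay attached to the cell surface and signal at cell contacts, where they help to keep tissue boundaries and to bring shelves of tissue together, as in the palate, where mice without ephrin-B1 have clefts. Slits repel through Robo receptors, while netrins attract through Dcc and repel through Unc5 receptors.

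Gene expression was measured in palate tissue of C57BL/6J mouse embryos at embryonic day 15.5 with 18 single-colour Affymetrix arrays, 6 in each of 3 groups. The groups were the anterior palate of Tgfbr2 fl/fl controls, the posterior palate of Tgfbr2 fl/fl controls and the posterior palate of K14-Cre;Tgfbr2 fl/fl mutants, so the floxed alleles of this TGF-beta receptor were common to every group and only the mutants carried the recombinase. K14-Cre is driven by the keratin 14 promoter, which is active in epithelium, and the stated interest was in signals that pass from the epithelium of the palate to its muscle. The design text gives 5 samples a group where 6 are labelled, places mutants and controls in separate litters, and the labels leave unsaid if embryos were pooled. The p-values therefore reflect only how far these arrays spread, some of which may be technical.

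All values are on a log2 scale on which a difference of 1 is a doubling, and array means lay between 6.26 and 6.37. A gene was called at a limma p under 0.05 after Benjamini-Hochberg adjustment over all 18193 genes. The brightest probe set of Tgfbr2 itself was higher in mutants, by 0.55 (adjusted p = 0.00879), while its other probe sets differed by 0.24 and -0.10 and were not called. Which of them lie in the deleted exons is not given in the sources used here. Epithelial markers were present in every array, but their mean was 9.33 in mutant array 1 and 11.18 to 12.02 in the other 5 mutant arrays. Neuronal markers averaged 8.19 to 8.87 in control posterior arrays and 5.99 to 10.63 in mutant arrays. Skeletal muscle markers averaged 5.54 to 8.01 in anterior, 9.78 to 10.79 in posterior control and 9.58 to 11.92 in mutant arrays. Hybridisation spike-in controls, RNAs added at a fixed amount, separated arrays 1 to 3 from arrays 4 to 6 in every group, and labelling spike-ins were lower in every mutant array (6.39 to 7.73) than in every control array (8.11 to 9.66). The labels do not name these sets. In bulk tissue, fewer cells of a type and less RNA per cell cannot be told apart.

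**Figure D1:**
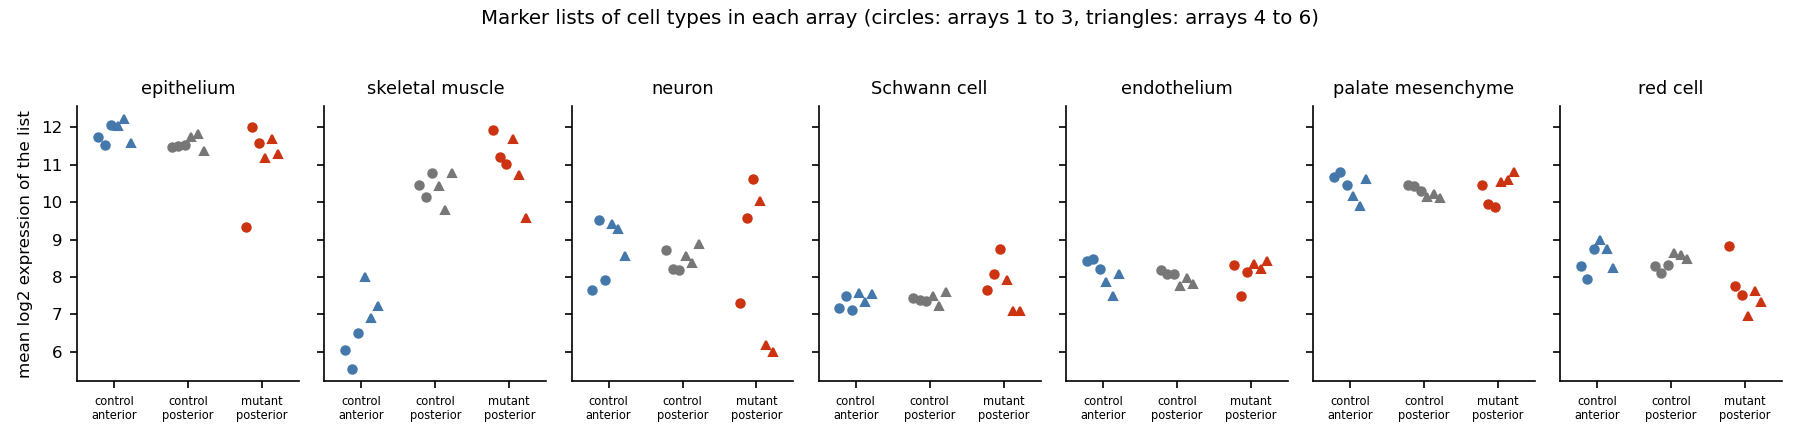
Mean log2 expression of 7 marker lists (y axis) in each array of the 3 groups (x axis), with circles for arrays 1 to 3 and triangles for arrays 4 to 6. Mutant array 1 has the lowest epithelial mean at 9.33, muscle means are lower in every anterior array (at most 8.01) than in any posterior array (at least 9.58), and the neuron means of mutant arrays run from 5.99 to 10.63.

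The first comparison asked which guidance genes differed when the receptor was deleted in epithelium, between mutant and control posterior palate. Guidance genes that were called were mostly higher in mutants: 12 of the 72 rose and 1 fell, together 18.1%, where 13.5% of all genes were called (7.73% higher and 5.73% lower). Semaphorins made up 6 of the 12, led by Sema3b and Sema5a, and the one gene that fell was the ephrin Efna4. With arrays centred on their medians 6 members were higher and 1 lower, and the share of higher calls over all genes went from 57.5% to 40.5%. The median difference of the 72 was 0.14, against 0.041 over all genes, and 49 of the 72 were above 0. The 6 mutant and 6 control values of a gene did not overlap for 7 members that were higher and 1 that was lower, where 6.55% of all genes had no overlap. Among ligands 7 of 37 rose and 1 fell, and among receptors 5 of 32 rose and 0 fell, with 13 of the 32 receptors at an unadjusted limma p under 0.05. Over all genes 5096 of 18193 were under that unadjusted p, which is the background for such counts in this comparison.

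**Figure D2:**
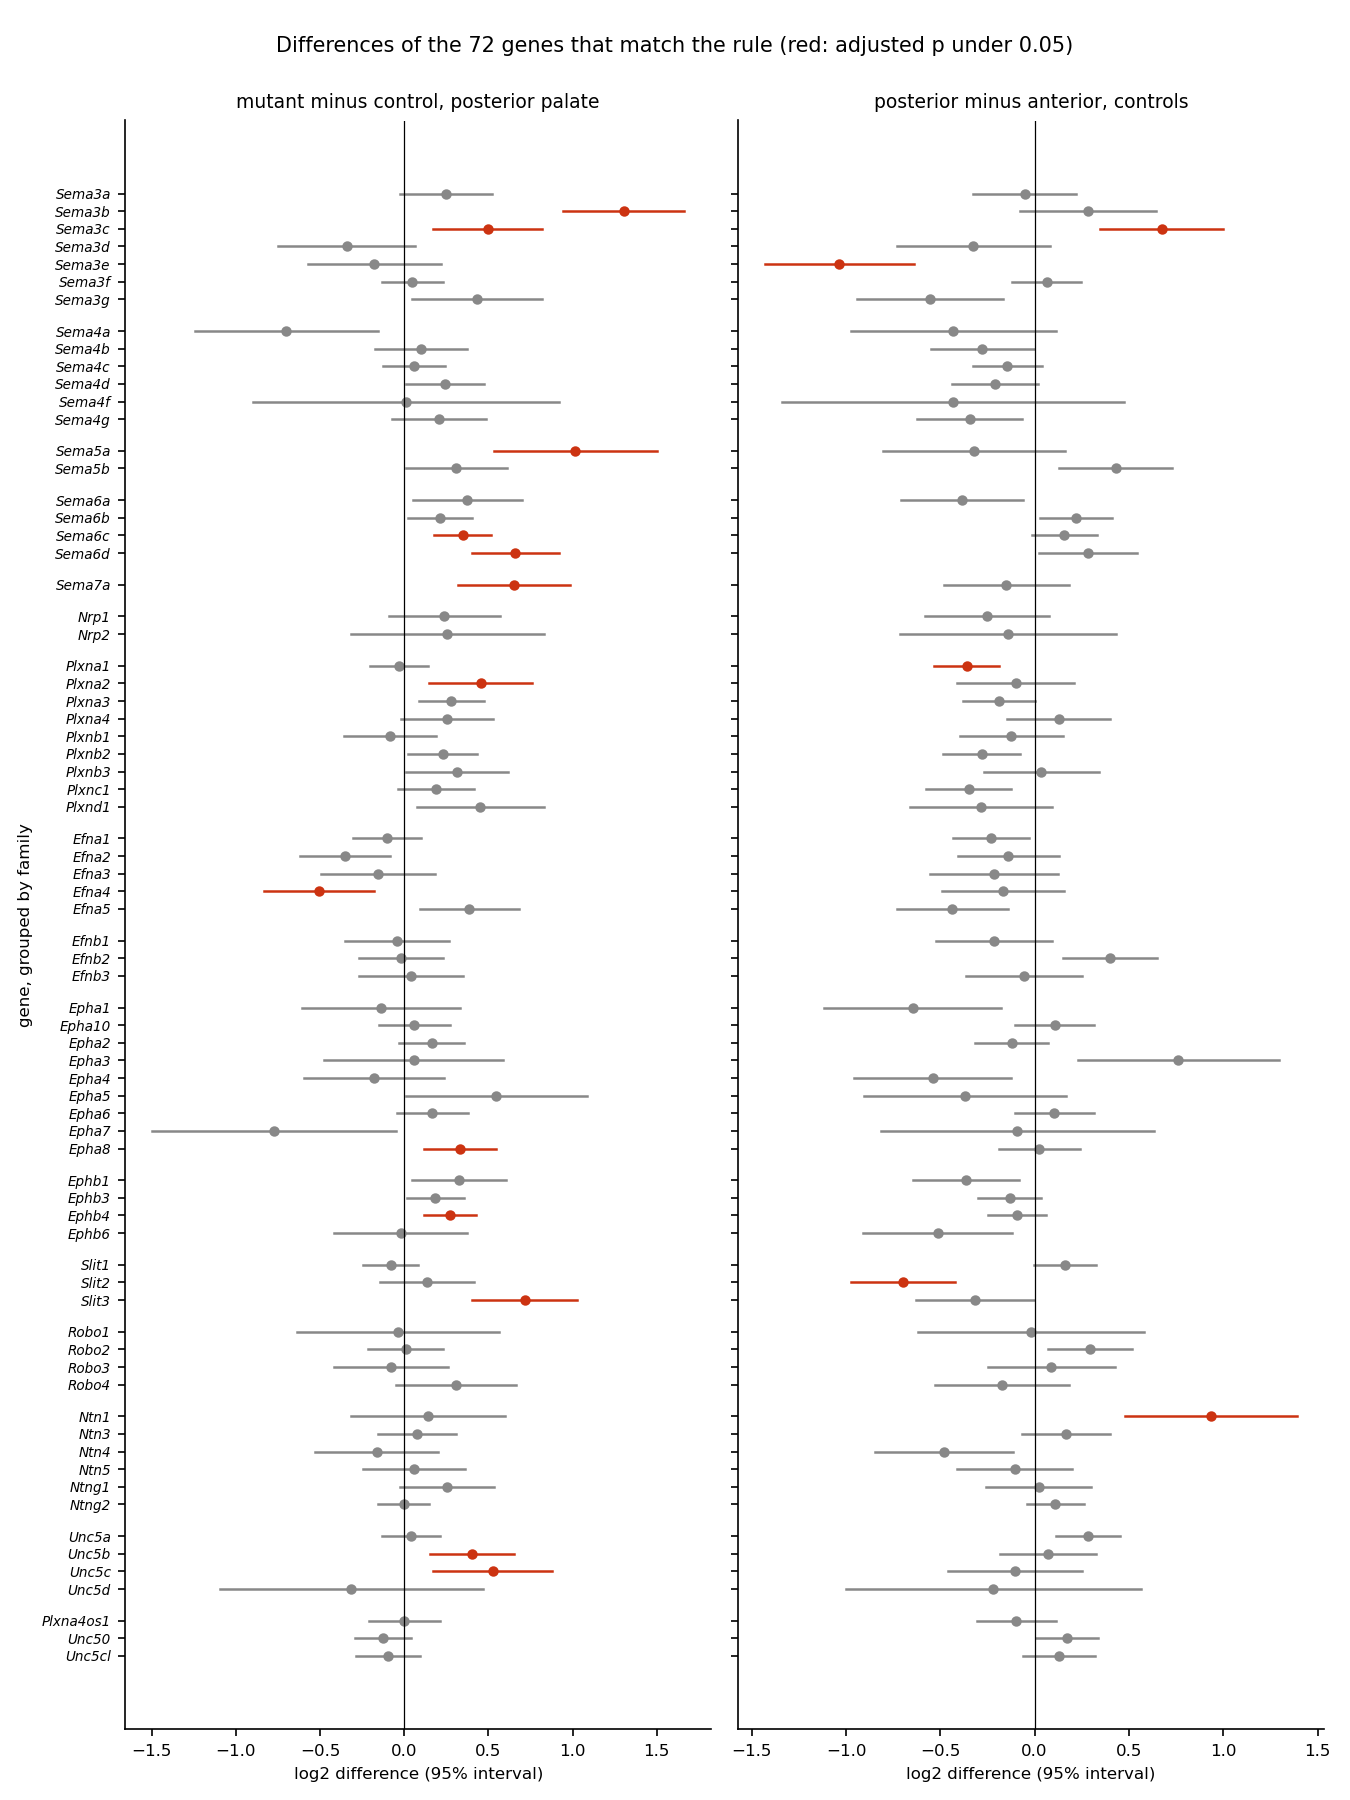
Log2 difference with its 95% interval (x axis) for each of the 72 genes, ordered by family (y axis), for mutant minus control posterior palate on the left and control posterior minus anterior palate on the right. Genes called at an adjusted p under 0.05 are red: 12 lie right of 0 and 1 left of it for genotype, and 2 lie right and 3 left for region.

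Among the secreted class 3 semaphorins 2 of 7 rose. Sema3b, which repels axons through neuropilins, ranged from 6.35 to 7.17 in control posterior arrays (median 6.87) and from 7.76 to 8.62 in mutant arrays (median 8.18). Every mutant array lay above every control array, anterior ones included, whose highest value was 7.17. Sema3b was 2.47-fold higher in mutants, a log2 difference of 1.30 (95% interval 0.94 to 1.66, adjusted p = 0.000165). Its other probe sets were also called, at 0.49 and 0.71. Sema3c, which guides neural crest cells into the cardiac outflow tract, ranged from 10.11 to 10.31 in control arrays (median 10.23) and from 10.35 to 11.57 in mutant arrays (median 10.57). The groups did not overlap, but mutant array 1 at 11.57 stood apart from the other 5, which reached at most 10.80. The difference was 0.49 (SE 0.16, adjusted p = 0.0414), and it was 0.32 (adjusted p = 0.0289) without mutant array 1. It was 0.80 (adjusted p = 0.00174) with mutant arrays 1 to 3 alone and 0.19 (adjusted p = 0.142) with mutant arrays 4 to 6 alone, both against all controls. The call was lost when any of 10 arrays was left out, namely control anterior 1 and 3, each of the 6 control posterior arrays, and mutant 2 and 3, at adjusted p = 0.0509 to 0.088. It was also lost with arrays centred on their medians.

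The other class 3 semaphorins were not called. Sema3a, the prototype collapsing factor for growth cones, differed by 0.25 (adjusted p = 0.229), although a dimmer probe set of it was higher by 1.02 (adjusted p = 0.00169 over all probe sets). Sema3d, another secreted semaphorin, ranged from 9.89 to 10.71 in control and from 9.46 to 10.92 in mutant arrays, and differed by -0.34 (adjusted p = 0.261). Sema3e, a ligand of plexin-D1, differed by -0.18 (adjusted p = 0.574).

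Membrane-bound semaphorins gave 4 further calls, all higher in mutants. Sema5a, a transmembrane semaphorin with thrombospondin repeats, ranged from 7.66 to 8.07 in control posterior arrays (median 7.72) and from 8.17 to 9.63 in mutant arrays (median 8.62). The groups did not overlap, and mutant arrays 1 and 6 were highest, at 9.55 and 9.63. Sema5a was 2.02-fold higher, a difference of 1.02 (95% interval 0.53 to 1.5, adjusted p = 0.00796), whereas its other probe sets, at 0.51, 0.35 and -0.09, were not called. Sema6d, a transmembrane ligand of class A plexins, ranged from 8.99 to 9.41 in control arrays (median 9.13) and from 9.49 to 10.19 in mutant arrays (median 9.80). With no overlap between the groups, Sema6d was higher by 0.66 (95% interval 0.40 to 0.92, adjusted p = 0.0024). Its other probe sets, all much dimmer, differed by 0.31, 0.06 and 0.01, and only the one at 0.31 was called.

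Sema6c, of the same class, ranged from 7.41 to 7.68 in control and from 7.74 to 8.21 in mutant arrays and did not overlap either (0.35, SE 0.081, adjusted p = 0.00964). The other probe sets of Sema6c, at 0.04 and 0.02, were not called, and its call was lost with the mean of probe sets. Sema7a, which is held on the membrane by a lipid anchor and binds integrins and plexin-C1, was higher by 0.65 (SE 0.16, adjusted p = 0.0118). Its lowest mutant value, 6.77, lay below the highest control value, 6.80, and its other probe set, at 0.20, was not called. Of 6 class 4 semaphorins, 0 were called by limma and 2 had an unadjusted p under 0.05. Sema4b differed by 0.10 (adjusted p = 0.667), and Sema4a, known for its part in immune cells, differed by -0.70 (SE 0.26, adjusted p = 0.0811). The Sema4a values of mutant arrays ran from 5.73 to 7.67 where control arrays stayed within 7.49 to 7.67. Over all 20 semaphorins 6 rose (30.0%), 0 fell, 17 differences were above 0 and the median was 0.24. Over all genes 7.73% rose, 10612 of 18193 differences were above 0 and the median was 0.041. The semaphorins were pooled after the data were seen. With all groups limited to arrays 1 to 3, 2 semaphorins were called, Sema3b higher and Sema4a lower.

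Of the Slit ligands 1 of 3 rose. Slit3 ranged from 6.40 to 6.74 in control posterior arrays (median 6.66) and from 6.91 to 7.88 in mutant arrays (median 7.28). The groups did not overlap, and Slit3 was 1.64-fold higher, a difference of 0.71 (95% interval 0.40 to 1.03, adjusted p = 0.00479) from its single probe set. Slit2 differed by 0.14 (adjusted p = 0.544).

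The RefSeq upstream sequences of Sema5a and Slit3 are shown because these ligands had called differences of at least 0.71 on the log2 scale and a RefSeq promoter entry (build GRCm38.p6). They are the 250 bases before the annotated start, at chr15:32244563-32244812 and chr11:35121206-35121455, both on the plus strand, 5′ to 3′. Capitals mark, on either strand, CAGAC or GTCTG, the core of the element bound by the SMAD proteins that carry TGF-beta signals, GGGCGG or CCGCCC, the GC box, and TATAAA or TTTATA, the TATA box.
Sema5a: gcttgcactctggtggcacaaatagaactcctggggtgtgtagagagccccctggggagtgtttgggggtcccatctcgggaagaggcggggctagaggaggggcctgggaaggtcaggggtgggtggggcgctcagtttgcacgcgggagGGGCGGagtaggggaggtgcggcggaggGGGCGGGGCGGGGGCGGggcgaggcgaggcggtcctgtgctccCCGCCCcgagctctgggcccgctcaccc
Slit3: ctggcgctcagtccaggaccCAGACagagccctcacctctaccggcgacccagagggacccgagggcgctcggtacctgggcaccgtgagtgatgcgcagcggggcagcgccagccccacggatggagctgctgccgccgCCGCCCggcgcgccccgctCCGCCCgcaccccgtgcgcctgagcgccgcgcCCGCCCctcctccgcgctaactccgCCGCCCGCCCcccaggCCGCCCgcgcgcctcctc
The Sema5a sequence held 0 SMAD core motifs, 5 GC boxes and 0 TATA boxes and was 72% G or C. That of Slit3 held 1 SMAD core motif and 6 GC boxes and was 78.8% G or C. Promoter entries of 1 chromosome were left out of the counts that follow. Over the remaining 32851 mouse promoter entries of this length, 42.2% held the SMAD core, 32.7% the GC box and 12.4% the TATA box. Among the 78 entries of 62 of the 72 genes that match the names, these shares were 52.6%, 71.8% and 2.56%. The 16 entries of 14 genes called in either comparison held them in 43.8%, 75.0% and 6.25%. These matches describe letters in the window and not binding.

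Ephrins showed the one fall. Efna4, an ephrin-A held on the membrane by a lipid anchor, ranged from 8.70 to 8.98 in control posterior arrays (median 8.83) and from 7.47 to 8.64 in mutant arrays (median 8.45). The groups did not overlap, but mutant array 1 at 7.47 lay far below the other 5, which stayed at 8.34 or above. Efna4 fell by 0.51 (SE 0.16, adjusted p = 0.0376), and the difference was -0.34 (adjusted p = 0.0263) without mutant array 1. The call was lost without mutant array 4 or without control posterior array 1, 2, 4, 5 or 6, at adjusted p = 0.0529 to 0.0802.

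Efna5, which also has a lipid anchor, differed by 0.39 (adjusted p = 0.0757) and lay above the control mean in 6 of 6 mutant arrays. None of the 3 ephrin-B genes was called by limma, and 0 had an unadjusted p under 0.05. Efnb2, which marks arterial endothelium among other cells, differed by -0.02 (95% interval -0.27 to 0.23). Efnb1 differed by -0.04 (adjusted p = 0.884) on its brightest probe set, while its other probe sets were both called higher, by 0.49 and 0.40. Of 6 netrins 0 were called by limma and 0 had an unadjusted p under 0.05. Ntn1, the founding netrin, was at 8.28 in mutant array 1 and between 9.57 and 10.04 in the other 5, and differed by 0.14 (adjusted p = 0.714). Without mutant array 1 the Ntn1 difference was 0.39 (adjusted p = 0.0348).

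**Figure D3:**
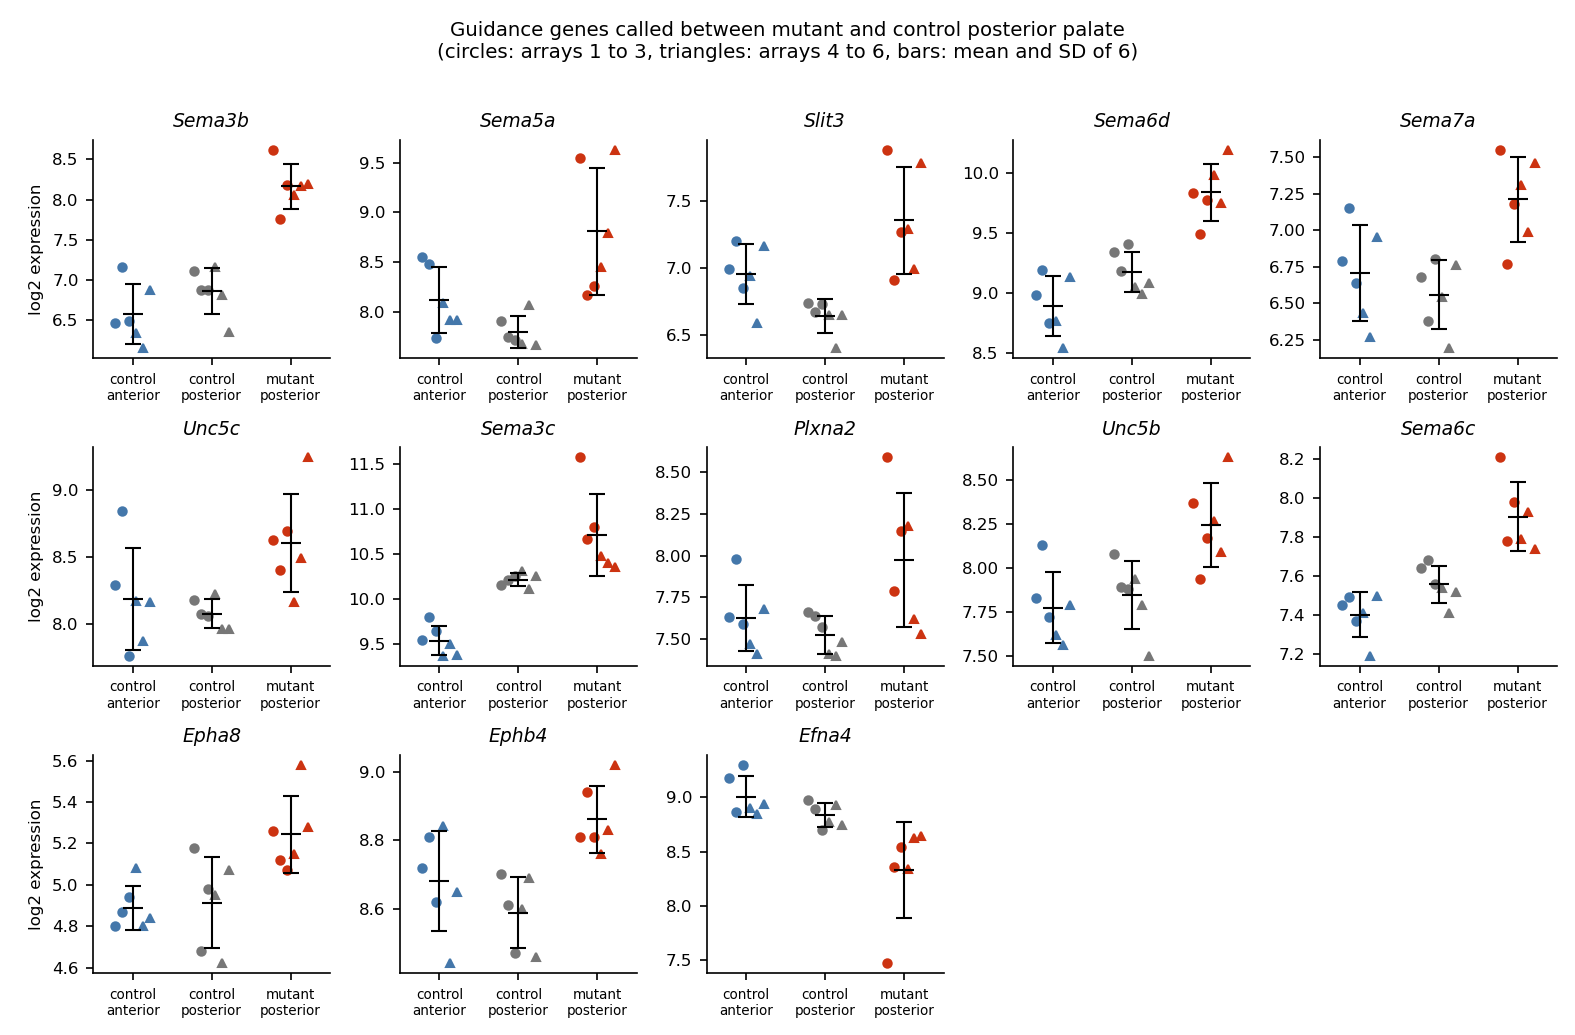
Log2 expression (y axis) of the 13 guidance genes called between mutant and control posterior palate, in each array of the 3 groups (x axis), with circles for arrays 1 to 3, triangles for arrays 4 to 6 and bars for mean and SD of 6. Mutant points lie clear above the control posterior points for Sema3b (7.76 to 8.62 against 6.35 to 7.17) and below them for Efna4 (7.47 to 8.64 against 8.70 to 8.98).

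Receptors that were called all rose, by less than the leading ligands. With arrays centred on their medians, all of these receptor calls (Plxna2, Ephb4, Epha8, Unc5b and Unc5c) were lost. Plxna2, a class A plexin that pairs with neuropilins, ranged from 7.40 to 7.66 in control arrays (median 7.53) and from 7.53 to 8.59 in mutant arrays (median 7.97). The groups overlapped, and the difference was 0.45 (SE 0.15, adjusted p = 0.0486). Of the other probe sets of Plxna2, those at 0.67 and 0.62 were called and the dimmest, at 0.32, was not. Its call was lost when any of 14 arrays was left out (every control posterior array, control anterior 1, 3, 4, 5 and 6, and mutant 1, 3 and 4, adjusted p = 0.0523 to 0.102).

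Among the remaining plexins, Plxnb2, a receptor of class 4 semaphorins, differed by 0.23 (adjusted p = 0.13), Plxnc1, a receptor of Sema7a, by 0.19 (adjusted p = 0.26), and Plxnd1, a receptor of Sema3e, by 0.45 (adjusted p = 0.105). Plxna1 differed by -0.03 (95% interval -0.20 to 0.14). The neuropilins gave 0 calls of 2, with 0 at an unadjusted limma p under 0.05. Nrp1, which also binds vascular endothelial growth factor, differed by 0.24 (adjusted p = 0.343) on its brightest probe set, and 2 of its 3 other probe sets were called higher, by 0.78 and 0.55. Nrp2 differed by 0.26 (adjusted p = 0.58).

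Eph receptors contributed 2 calls. Ephb4, the venous receptor of ephrin-B2, ranged from 8.46 to 8.70 in control arrays (median 8.61) and from 8.76 to 9.02 in mutant arrays (median 8.82), without overlap. It was higher by 0.27 (SE 0.074, adjusted p = 0.0205), and the call was lost without control posterior array 6 (adjusted p = 0.0535). Epha8 was higher by 0.33 (SE 0.10, adjusted p = 0.0395) at values of 5.07 to 5.58 in mutants, near the lower end of the scale, where a reading may be background. Its call was lost without control posterior array 2, 4 or 5 or mutant array 1, 5 or 6 (adjusted p = 0.0563 to 0.101).

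Epha4, which binds ephrins of both classes, differed by -0.18 (adjusted p = 0.599) on its brightest probe set, with mutant values from 7.69 to 9.53. Of its 4 other probe sets, 3 were called higher in mutants, by 0.83, 0.76 and 1.01, so the probe sets of Epha4 disagree in sign. The remaining Eph receptors named here were not called: Epha3 differed by 0.06 (adjusted p = 0.911), Epha1 by -0.14 (adjusted p = 0.732) and Ephb3 by 0.19 (adjusted p = 0.136).

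**Figure D4:**
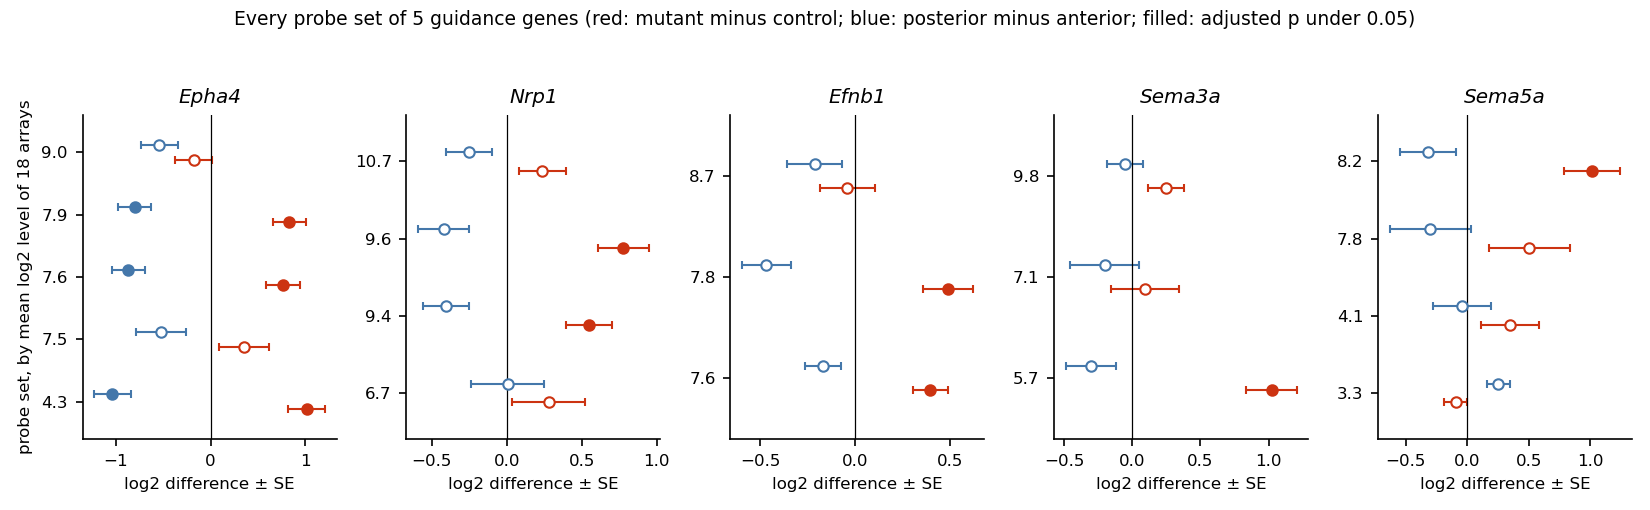
Log2 difference ± SE (x axis) of every probe set of Epha4, Nrp1, Efnb1, Sema3a and Sema5a, ordered by mean level over 18 arrays (y axis), in red for mutant minus control and in blue for posterior minus anterior, filled where the adjusted p over all probe sets is under 0.05. For Epha4 the brightest probe set lies at -0.18 while 3 dimmer ones lie between 0.76 and 1.01.

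Among the netrin receptors 2 of 4 rose. Unc5b, known from endothelium, ranged from 7.50 to 8.08 in control and from 7.94 to 8.63 in mutant arrays and was higher by 0.40 (SE 0.12, adjusted p = 0.0336), and its other probe set was called as well, at 0.84. Unc5c ranged from 7.96 to 8.22 in control and from 8.16 to 9.24 in mutant arrays and was higher by 0.53 (SE 0.17, adjusted p = 0.0471). Mutant and control values overlapped for both genes. The Unc5b call was lost without control posterior 2, 4, 5 or 6 or mutant 1, 4 or 6 (adjusted p = 0.0513 to 0.0829). That of Unc5c was lost without any control posterior array, control anterior 1, 4 or 6, or mutant 1, 3, 5 or 6 (adjusted p = 0.0537 to 0.0973). Unc5a differed by 0.04 (adjusted p = 0.788). The Slit receptors gave 0 calls of 4, with 0 at an unadjusted limma p under 0.05. Robo1 differed by -0.04 (95% interval -0.64 to 0.56) and Robo2, near the lower end of the scale, by 0.01 (95% interval -0.21 to 0.23).

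Of the 13 genes called for genotype, 9 had other probe sets, and 16 of those 17 probe sets differed in the same direction, 7 of them with a call of their own. When the 4 sets of arrays (controls 1 to 3 and 4 to 6, mutants 1 to 3 and 4 to 6) were fitted as a random block, 2 of the 13 stayed called, Sema3b (adjusted p = 0.00708) and Sema6d (adjusted p = 0.0291). Each set holds 1 genotype, and labelling spike-ins also separate the genotypes, so set and genotype can be told apart only through the spread between sets. The number of called members fell from 13 to 7 without control posterior array 2, 4, 5 or 6, and without mutant array 1 it was 14, of which 9 are among the 13. The share of all genes called under these settings is not given. The changes in count are therefore not read as particular to guidance genes.

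Marker lists were read beside these calls. In mutant against control posterior palate, 0 of 10 epithelial, 0 of 10 muscle, 0 of 10 neuronal, 0 of 9 endothelial and 0 of 8 mesenchymal markers were called by limma, with 2, 2, 0, 1 and 3 of them at an unadjusted p under 0.05. Over all genes 5096 of 18193 were under that unadjusted p. The median differences of these lists, in the same order, were -0.43, 0.52, -0.18, 0.19 and 0.18, and 1 of 10, 9 of 10, 5 of 10, 8 of 9 and 5 of 8 differences were above 0. Each of these medians was further from 0 than the 0.14 of the guidance genes. Of 6 Schwann cell markers, 5 of them above 0 with a list median of 0.37, Sox10 was called, at 0.56, and of 5 red cell markers the embryonic globin genes Hbb-y and Hba-x were called lower, by -2.93 and -1.41, while the other 3 were above 0 and uncalled (list median 0.057). Mutant array 1, the mutant array lowest in epithelial markers (9.33) and highest in muscle (11.92) and red cell markers (8.82), was also the lowest mutant array for 12 of the 37 named members (Efna4, Ntn1, Ntn4, Sema3a, Sema3e, Sema4a, Sema4b, Robo1, Epha1, Epha3, Epha4 and Ephb3). It was the highest for 8 (Sema3b, Sema3c, Sema6c, Sema7a, Slit2, Slit3, Efna5 and Plxna2). The share of all genes at which it was lowest or highest was not computed. Array weights fitted over all genes, lower for arrays that scatter more, were lowest for this array (0.17). Mutant arrays 2 and 3 came next (0.28 and 0.29), so these counts are not read as particular to guidance genes. The part of cell composition in the genotype differences was not tested beyond leaving out mutant array 1.

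Some members varied among the mutants far more than among the controls, with a median SD over the 72 genes of 0.30 in the mutants, 0.15 in posterior controls and 0.19 in anterior controls. Over all genes these medians were 0.23, 0.13 and 0.15. Chosen after its values were seen, Sema4f had an SD of 1.30 in mutants and 0.30 in control posterior arrays. Its values in mutant arrays 1 to 6 were 5.59, 7.77, 8.72, 7.84, 5.89 and 6.01, beside neuron marker means of 7.30, 9.57, 10.63, 10.02, 6.18 and 5.99 in the same arrays. Arrays 2, 3 and 4 were thus the higher ones in both. Whether Sema4f follows the neuronal content of the samples was not tested.

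Robo1 split by array set, from 9.21 to 10.13 in mutant arrays 1 to 3 and from 10.51 to 11.51 in mutant arrays 4 to 6, around a control posterior range of 10.04 to 10.43. With all 12 control arrays, Robo1 was lower by -0.72 (adjusted p = 0.0107) in mutant arrays 1 to 3 alone and higher by 0.64 (adjusted p = 0.0286) in mutant arrays 4 to 6 alone. Efnb1 did the same, at -0.40 (adjusted p = 0.0102) and 0.32 (adjusted p = 0.04). Epha7 and Unc5d, also chosen after their values were seen, lay at 7.50 to 7.98 and 4.00 to 5.11 in mutant arrays 1 to 3 and at 9.23 to 10.24 and 5.58 to 6.68 in mutant arrays 4 to 6. The values of the sets did not overlap for 19 of 72 members in mutants (26.4%), where 31.1% of all genes had no overlap. They did not overlap for 26 of 72 in control posterior arrays (36.1%, against 24.4% of all genes) and for 10 of 72 in control anterior arrays (13.9%, against 15.4% of all genes). The sign of a guidance gene's genotype difference can therefore depend on which mutant arrays are used, as for Robo1 and Efnb1, while Sema3b, Sema5a, Sema6c, Sema6d, Sema7a, Slit3 and Ephb4 were called higher with either set of mutant arrays against all 12 controls. When all groups were limited to arrays 1 to 3, Sema3b alone of the 13 genes stayed called, and with arrays 4 to 6 in all groups 7 did, without Ephb4.

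A wider list of 64 co-receptors and cytoplasmic effectors of the same pathways, of which 62 were measured, gave 13 genes that rose and 1 that fell, together 22.6%, where 13.5% of all genes were called. Among the called genes the 10 largest differences were Trio at 0.58, Gpc1 at 0.48, Srgap1 at 0.45, Dpysl2 at 0.39, Abl2 at 0.38, Rras at 0.36, Mical3 at 0.33, Enah at 0.32, Ptk7 at 0.30 and Arhgef11 at 0.29, with adjusted p from 0.00209 to 0.0499. Trio acts downstream of Dcc, Srgap1 binds Robo receptors, Dpysl2 relays semaphorin signals to microtubules, and Rras is a target of plexins. Cfl1, the actin-severing protein cofilin, was the one that fell, by 0.23 (adjusted p = 0.0195), and is named after its value was seen. The netrin receptor Dcc, named outside the naming rule, differed by 0.16 (adjusted p = 0.744) and was not called. The count of 14 was 8 without control posterior array 4 or 5 or mutant array 3, and 1 gene, Trio, stayed called with the 4 sets as a random block. These falls are likewise given without the share of all genes and are not read as particular to this list.

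The second comparison asked which guidance genes differed along the palate, between posterior and anterior tissue of controls. Posterior palate had more Ntn1 and Sema3c and less Sema3e, Slit2 and Plxna1: 2 of the 72 rose towards the posterior and 3 fell, together 6.94%, where 3.82% of all genes were called (1.7% higher and 2.12% lower). The median difference of the 72 was -0.13, against -0.0175 over all genes, and 25 of 72 were above 0. Values of the 2 regions did not overlap for 4 members that were higher and 7 that were lower in posterior palate, where 6.32% of all genes had no overlap. With arrays centred on their medians the count was again 5, of which 4 are among the calls above, with 3 higher and 2 lower. The calls of all genes then shifted from 44.5% to 71.2% higher.

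Ligands gave 4 of the 5 calls. Ntn1 ranged from 8.26 to 8.69 in anterior (median 8.40) and from 9.13 to 9.61 in posterior arrays (median 9.38). The regions did not overlap, and Ntn1 was 1.91-fold higher in posterior palate, a difference of 0.93 (95% interval 0.48 to 1.39, adjusted p = 0.0204). Sema3c ranged from 9.37 to 9.80 in anterior (median 9.52) and from 10.11 to 10.31 in posterior arrays (median 10.23), also without overlap. Its difference was 0.67 (95% interval 0.35 to 1.00, adjusted p = 0.0189). Its other probe set, at 0.53, was not called. The Sema3c call was lost with the mean of probe sets, with the probe set of highest SD and with arrays 1 to 3 only. That of Ntn1 was lost with arrays 1 to 3 only.

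Sema3e ranged from 7.87 to 8.85 in anterior (median 8.40) and from 7.04 to 7.59 in posterior arrays (median 7.37). It did not overlap and was 2.05-fold lower in posterior palate, a difference of -1.04 (95% interval -1.43 to -0.64, adjusted p = 0.00369). Of its other probe sets, those at -1.02 and -1.41 were called and the dimmest, at -0.81, was not. Slit2 ranged from 9.86 to 10.50 in anterior (mean 10.07) and from 9.23 to 9.67 in posterior arrays (mean 9.38), again without overlap, and was 1.62-fold lower in posterior palate (-0.70, 95% interval -0.97 to -0.42, adjusted p = 0.00496). Control posterior array 2 held the highest posterior value of Slit2, 9.67, and the other 5 lay between 9.23 and 9.37. The Slit2 call was lost with the probe set of highest SD and with arrays 1 to 3 only. That of Sema3e was lost with arrays 4 to 6 only.

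The upstream sequences of Slit2 and Sema3e, the ligands that were lower in posterior palate, are shown as for the genotype comparison. They lie at chr5:47982905-47983154 and chr5:14025026-14025275 of GRCm38.p6 in RefSeq, on the plus strand, with the same motifs in capitals.
Slit2: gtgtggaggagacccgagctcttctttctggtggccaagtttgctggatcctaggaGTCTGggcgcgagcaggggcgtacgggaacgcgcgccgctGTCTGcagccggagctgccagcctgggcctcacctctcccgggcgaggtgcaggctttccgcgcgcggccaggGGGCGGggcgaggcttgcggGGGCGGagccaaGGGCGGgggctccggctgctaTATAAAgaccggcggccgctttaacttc
Sema3e: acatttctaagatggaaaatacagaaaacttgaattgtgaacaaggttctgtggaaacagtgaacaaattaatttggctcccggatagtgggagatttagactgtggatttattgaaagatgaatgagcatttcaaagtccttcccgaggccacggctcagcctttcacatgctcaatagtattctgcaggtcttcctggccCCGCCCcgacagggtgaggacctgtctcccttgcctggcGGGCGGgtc
The Slit2 sequence held 2 SMAD core motifs, 3 GC boxes and 1 TATA box and was 69.6% G or C. That of Sema3e held 0 SMAD core motifs, 2 GC boxes and 0 TATA boxes and was 48.0% G or C.

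Plxna1, a receptor for class 3 and class 6 semaphorins, was the one receptor called. It ranged from 8.34 to 8.56 in anterior (median 8.49) and from 7.93 to 8.36 in posterior arrays (median 8.07). Control posterior array 1, at 8.36, overlapped with the anterior values, and Plxna1 was lower in posterior palate by -0.36 (SE 0.082, adjusted p = 0.018). Its other probe set differed by 0.055 and was not called. The call was lost without control posterior array 6 (adjusted p = 0.0536), with arrays centred on their medians (adjusted p = 0.0875), with the mean of probe sets (adjusted p = 0.329) and with arrays 1 to 3 only (adjusted p = 0.464).

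**Figure D5:**
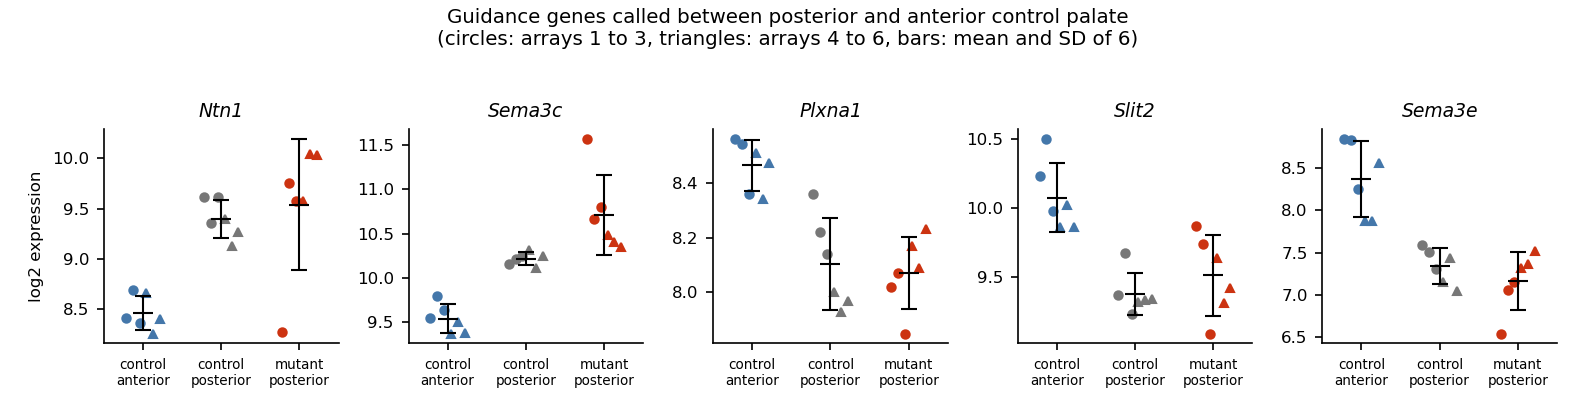
Log2 expression (y axis) of the 5 guidance genes called between posterior and anterior control palate, in each array of the 3 groups (x axis), with circles for arrays 1 to 3, triangles for arrays 4 to 6 and bars for mean and SD of 6. Posterior control points lie above anterior ones for Ntn1 and Sema3c and below them for Slit2 and Sema3e, and mutant array 1 is apart from the other mutants for Ntn1, at 8.28.

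Members whose regions did not overlap but that missed the threshold were Efnb2 (0.40, adjusted p = 0.0673) and the netrin receptor Unc5a (0.28, adjusted p = 0.0596), which were higher in posterior palate. Those lower were Plxnc1 (-0.35, adjusted p = 0.0791), Epha1 (-0.65, adjusted p = 0.115), Ntn4 (-0.48, adjusted p = 0.128), Epha4 (-0.54, adjusted p = 0.135) and Sema4a (-0.43, adjusted p = 0.372). For Epha4, 3 of the 4 other probe sets were called lower in posterior palate, by -0.80, -0.87 and -1.04, and these are the probe sets that were called higher in mutants. Epha3 differed by 0.76 with overlapping values and was not called (adjusted p = 0.102).

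Several families gave 0 calls by limma in this comparison: 0 of 3 ephrin-B, 0 of 5 ephrin-A, 0 of 9 EphA, 0 of 4 EphB, 0 of 4 Robo, 0 of 4 Unc5 and 0 of 2 neuropilin genes, with 1, 2, 3, 2, 1, 1 and 0 of them at an unadjusted p under 0.05. Over all genes 3610 of 18193 were under that unadjusted p. With the replicate number as a block over the 12 control arrays, Efnb1, Efnb2, Efna5, Epha1, Epha3, Epha4, Robo2 and Unc5a of these families were called (adjusted p = 0.00193 to 0.0271). Nrp1 differed by -0.25 (adjusted p = 0.388), Efnb1 by -0.21 (adjusted p = 0.441) and Efna5 by -0.44 (adjusted p = 0.0911). Robo1 differed by -0.02 and Robo2 by 0.29, with 95% intervals of -0.62 to 0.58 and 0.07 to 0.52. Slit3, which was called for genotype, differed by -0.32 (adjusted p = 0.248). From the wider list 2 of 62 were called, Rgmb, a bone morphogenetic protein co-receptor that binds neogenin, at 0.40 (adjusted p = 0.0324), and Mical3 at -0.54 (adjusted p = 0.00817), a share of 3.23%, where 3.82% of all genes were called.

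The 5 genes called for region had 8 other probe sets, of which 7 differed in the same direction and 2, both of Sema3e, were called. The 5 region calls stayed called with the 4 sets as a random block, where 13 members were called. Anterior and posterior control arrays with equal replicate numbers deviated together, which a shift shared by arrays 1 to 3 or 4 to 6 would also give. With the number as a block over the 12 control arrays 27 members were called, 8 higher and 19 lower, the 5 among them. With the block over all 18 arrays the count was 5. Without mutant array 1, which enters only through the common spread, 11 were called. The counts of 13, 27 and 11 are given without the share of all genes called under the same settings. They are therefore not read as particular to guidance genes. Beside these differences, 10 of 10 skeletal muscle markers were called higher in posterior palate, with a median difference of 3.90, and of 8 mesenchymal markers Msx1 was called lower, by -2.86, while 6 of the 8 were above 0 (list median 0.23). The part of muscle content in the guidance genes' region differences was not tested.

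Both comparisons use the control posterior arrays, once as the control and once as the group compared, so their differences are given side by side and were not correlated. Sema3c was called higher in both, at 0.67 from anterior to posterior and 0.49 from control to mutant, the latter 0.19 and not called with mutant arrays 4 to 6 alone. Sema3e was -1.04 and -0.18, Slit2 was -0.70 and 0.14, Ntn1 was 0.93 and 0.14, and Plxna1 was -0.36 and -0.03, so that these 4 were called for region only, which is no test of a difference between the comparisons. Sema3b was 0.28 and 1.30, Sema5a was -0.32 and 1.02, Slit3 was -0.32 and 0.71, and Sema6d was 0.28 and 0.66 in the same order.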

How the data were processed

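The deposited values are log2 expression of 45101 probe sets made by the authors with RMA, per the submitters' processing notes, and RMA's quantile normalization would remove a change common to most genes. They were used as deposited. Of the probe sets, 34945 had 1 symbol and 932 several, and 64 controls were left out of the tests. The brightest probe set stood for its gene, which gave 18193 genes, of which 18032 matched RefSeq by Entrez number. No value is a detection call, so dim readings may be background, and the number of arrays limits the precision.

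The 3 groups were fitted with limma 3.58.1 in R 4.3.3 (lmFit and eBayes, statmod 1.5.0, 15 residual degrees of freedom, no covariate). Contrasts were mutant posterior minus control posterior and control posterior minus control anterior, 2-sided, with Benjamini-Hochberg adjustment over 18193 genes. The fit was tested on simulated data with independent noise and the same spread in every group. Those data lack the wider spread of the mutants and the shifts shared by array sets. They therefore cannot test the fit under these conditions. Tables and figures used Python 3.11.15, pandas 2.3.3 and matplotlib 3.10.9. Groups came from the sample titles.

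The members and gene lists were chosen with earlier results of these data known. Named are members that were called, did not overlap or were the brightest of a family, and a fixed set (37 in all); up to 10 called genes of the wider list per comparison; up to 3 of a marker list; and Tgfbr2. Other names are marked. Ephb2 of the fixed set was not analysed here.

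Equal replicate numbers were checked for pairing. After subtracting each group's mean, same-numbered arrays of the control regions correlated over genes at 0.111 to 0.43, above 0.1 in 6 of 6 pairs. By that mark they counted as pairs, from the data and not from the labels, although arrays 1, 2 and 4 matched another number better than their own. Those better matches, 2, 3 and 5, lay in the same set of arrays (1 to 3 or 4 to 6). The shift between sets was not removed first, so this check cannot tell pairing from a shared array set. Unless another setting is named, region differences, intervals and adjusted p-values come from the fit without pairing. Pairing entered only the alternatives with a replicate block. The alternatives tried were other rules for picking the probe set, leaving out dim genes, median centring, the 12 arrays of a comparison, replicate blocks, array sets, variance models, array weights and leaving out each array.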

Additional observations from a re-analysis of the deposited data

Results flagged for a closer look

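In groups of 6 samples, Dixon's test at 95% marked the highest or lowest sample in 6 of 111 groups (37 named members in 3 groups). Chance marks about 1 in 20 groups, so 6 is near the number that chance gives, and the causes were not tested. Mutant array 1 was marked for 3 genes: Sema3c at 11.57, above the other mutants at 10.35 to 10.80, Efna4 at 7.47, below 8.34 to 8.64, and Ntn1 at 8.28, below 9.57 to 10.04. That array also had the lowest epithelial marker mean, 9.33. Among control posterior arrays, array 2 was high for Slit2, at 9.67 against 9.23 to 9.37, array 5 was low for Slit3, at 6.40 against 6.65 to 6.74, and array 6 was low for Epha1, at 6.999 against 7.32 to 7.46.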

How the results depend on the processing

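Differences of named members kept their direction and side of the threshold in 1956 of their alternatives. They lost the call in 126, gained one in 86 and changed otherwise in 79. Only 13 members were called for genotype and 5 for region, so for most differences keeping the side meant staying uncalled. The 126 lost calls all fall on those called differences. The sign of a call reversed in 6, where a main difference near 0 or negative met a call above 0. Efnb1 (main -0.04) was 0.49 with the probe set of highest SD, 0.33 with arrays 4 to 6 only and 0.32 with mutant arrays 4 to 6 only. Epha4 (main -0.18) was 0.56 with the mean of probe sets and 1.01 with the probe set of highest SD, and Robo1 (main -0.04) was 0.64 with mutant arrays 4 to 6 only. The cause was not tested.

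For genotype the count of 13 called members was 7 with median-centred arrays, 8 with the 12 arrays of the comparison, 2 with the 4 sets as a random block, 4 and 21 with arrays 1 to 3 or 4 to 6 only (1 and 7 of them among the 13), 20 with mutant arrays 1 to 3 only (11 among the 13), and 7 to 15 without each array. The count of 6 called semaphorins was 2 with the sets as a random block, both among the 6, and 2 with arrays 1 to 3 only, which were Sema3b and, called lower, Sema4a. The count of 14 of the wider list was 7 with centring, 8 with 12 arrays, 1 with the sets, 4 with arrays 1 to 3 (1 among the 14), and 8 to 17 without each array. The replicate numbers do not pair mutant and control arrays (correlation above 0.1 in 2 of 6 pairs), and with the replicate block 9 members were called, without Efna4, Epha8, Unc5b and Unc5c.

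For region the count of 5 called members was 17 with 12 arrays, 13 with the sets, 1 with arrays 1 to 3, 24 with array weights, 27 with the replicate block over the 12 control arrays, and 4 to 11 without each array. The share of all genes called is not given for the alternatives of either comparison. No rise or fall of these counts is therefore read as particular to guidance genes. The count of 2 of the wider list was 1 with the probe set of highest SD, 11 with 12 arrays, 1 with the replicate block over all arrays, 4 with the sets, 0 and 1 with arrays 1 to 3 or 4 to 6 only, 14 with array weights, 12 with the block over 12 control arrays, and 1 to 4 without each array. The block over all arrays changed no call of a named member for region. Centring turned the share of higher calls over all genes from 57.5% to 40.5% for genotype and among region members from 40.0% to 60.0%. The mutant-only and control-only alternatives and the counts of semaphorins were added after seeing the data.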
